A study of Rattus norvegicus with 8 samples.

Results

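The genes described here are 9 complement components and receptors of the rat, C1qa, C1qb, C1qc, C2, C3, Cfb, Cfp, C3ar1 and C5ar1, measured in NR8383 cells treated with zinc oxide (ZnO). They were taken by name, and their probes are the non-control probes of the array whose identifier is a rat RefSeq transcript of one of them. All 9 genes had a probe, 10 probes in all on 28 spots, because C3ar1 has 2 probes and the C1qa and C1qb probes are each printed 10 times. A total of 5 of the 9 genes (C2, C3, Cfb, Cfp and C5ar1) passed the filter on dim probes and were tested, among 13460 tested genes of the whole array. The other 4 (C1qa, C1qb, C1qc and C3ar1) did not.

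NR8383 is a macrophage line established by lavage of the lung of a normal rat. One group received ZnO at 4 µg/mL and the other at 16 µg/mL, both for 4 h, and 4 arrays were run per dose, which the series' design calls biological replicates. The sample descriptions give 20 passages for the cells at 4 µg/mL and 200 for those at 16 µg/mL, and each dose had its own slide and scan, so dose, passage, slide and scan cannot be told apart in any difference below. The design also names untreated cells. These were not analysed here, and a difference is therefore ZnO 16 minus ZnO 4 and not a response to ZnO as such. All arrays come from 1 line, and nothing in the labels says whether the replicates were separate cultures on separate days, so the tests measure only the spread between these arrays.

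Complement is a set of plasma and membrane proteins that tag particles for uptake and call in inflammatory cells. It is started by C1q bound to a surface in the classical pathway or by spontaneous turnover of C3 in the alternative pathway, and every route leads to an enzyme that cleaves C3. Most plasma complement comes from the liver, but macrophages make several components themselves, C1q and properdin among them, and read the cleavage products C3a and C5a through receptors on their surface.

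Per array, 31.5% to 39.3% of probes gave a signal well above background, as Feature Extraction flags it. Levels are log2 signals relative to the 75th percentile of the same array, and the lowest level flagged as well above background was between -5.59 and -4.59 depending on the array. Because probes differ in how well they bind, levels are compared between doses and not between genes. Of 12 macrophage markers with a probe, 9 were well above background on all 8 arrays, among them Cd68, Ptprc, Csf1r, Lyz2 and Spi1. Marco, Cd163 and Adgre1 were not on any array. Most markers of other cells were at background. S100a9 and Elane of neutrophils, Epcam, Krt18 and Cdh1 of epithelium, Col1a2 and Col3a1 of fibroblasts, Cd3e and Cd2 of T cells, Cd79b of B cells and Kdr of endothelium were never well above background. Among markers of other cells, Dcn, Pecam1 and Cdh5 were flagged on all 8 arrays, and Cd3d of T cells on 4 of 4 arrays at ZnO 4 and 3 of 4 at ZnO 16. Others were flagged on a few arrays only and failed the filter. S100a8 of neutrophils and Sftpc of epithelium were each flagged on 2 of 4 arrays at ZnO 4. One Sftpb probe was flagged on 1 of 4 at ZnO 16. For Col1a1 of fibroblasts, 1 probe was flagged on 2 of 4 at ZnO 16 and the other on 1 of 4 at ZnO 4.

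Of the 9 genes, 4 could not be compared between the doses because their probes failed the filter. C2 rose by 0.54 on the log2 scale at ZnO 16, and it was the only one of the 5 tested genes that passed the threshold, an adjusted p under 0.05 by limma with Benjamini-Hochberg adjustment over all tested genes. That is 1 of 5 higher and 0 of 5 lower, against 41.7% of all tested genes called in either direction, 19.8% higher and 21.9% lower. At an unadjusted p under 0.05 the counts were 2 higher and 0 lower, and no share over all tested genes was counted at this threshold. The fitted difference was positive for all 5, with a median of 0.26 against 0.0042 over all tested genes. With no scaling or with spike-in scaling it was negative for all 5, beside medians of -0.75 and -0.69 over all tested genes. The shared sign is therefore no direction apart from the scaling. In none of the 5 did the 4 values of one dose lie wholly beyond those of the other, which held for 39.9% of all tested genes. Over all tested genes 2669 were higher and 2943 lower, and this split moved with the scaling, to 3405 and 1980 with the arrays scaled to their median, to 2776 and 1996 with normexp background correction and to 229 and 4417 with no scaling. In bulk RNA, fewer cells of a type and less RNA per cell cannot be told apart.

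**Figure D1:**
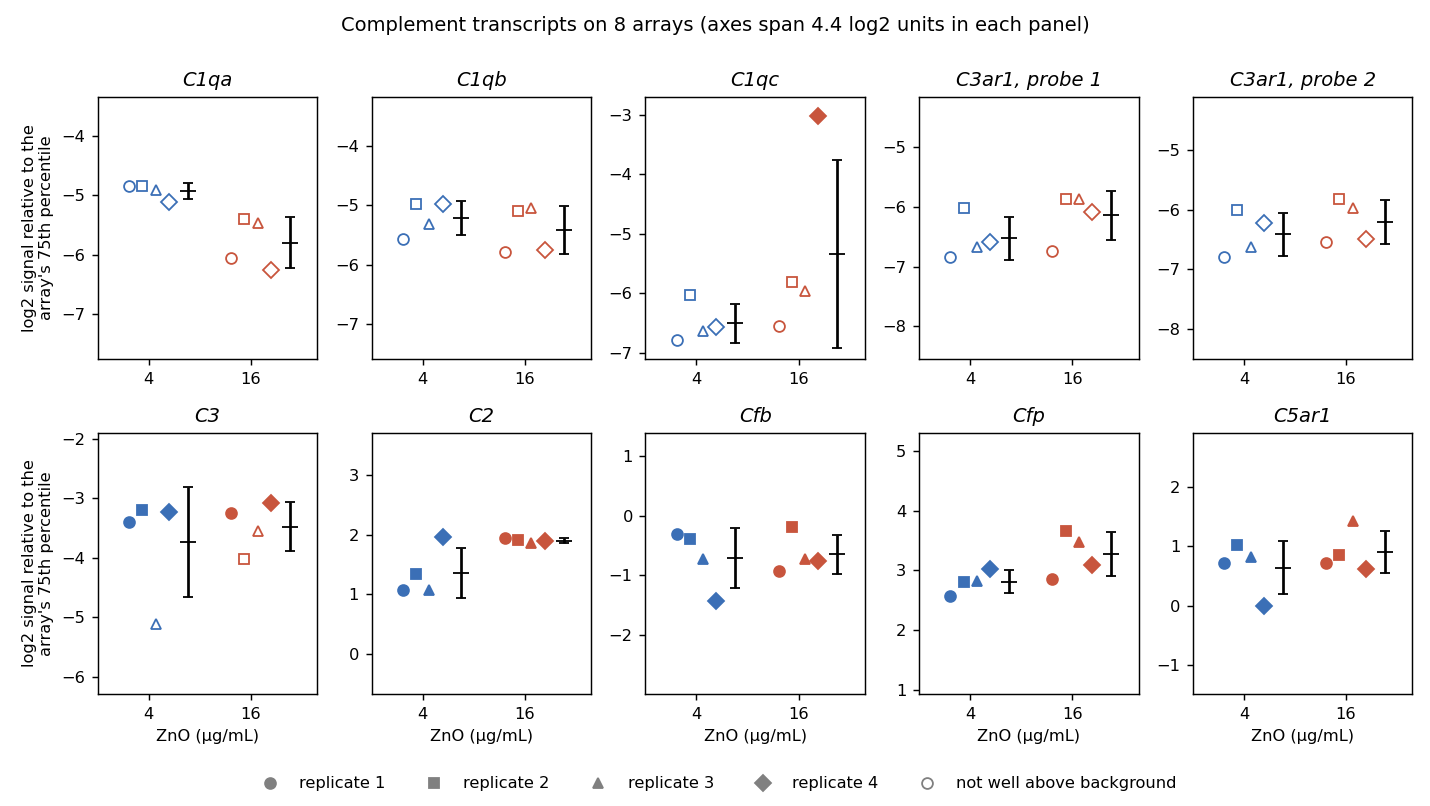
Level of each complement probe on the 8 arrays (y axis, log2 signal relative to the array's 75th percentile) by ZnO dose (x axis, µg/mL). Marker shape is the replicate number, open markers are arrays on which the probe was not well above background, and the bar is the mean ± SD of 4 arrays. The C1q and C3ar1 probes are open except C1qc on ZnO 16 replicate 4, and C2 lies within 1.86 to 1.95 on all 4 ZnO 16 arrays.

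The 3 C1q genes encode the chains of the recognition molecule of the classical pathway, a protein that tissue macrophages are known to make in quantity. In these cells none of the 3 passed the filter. For C1qa (NM_001008515) the levels on ZnO 4 replicates 1 to 4 were -4.85, -4.84, -4.91 and -5.12, and on ZnO 16 replicates 1 to 4 they were -6.06, -5.40, -5.47 and -6.26. All ZnO 16 arrays were lower than all ZnO 4 arrays, but no array had the probe well above background, so no fold is given and it was not tested. Single spots came closer: 4 of its 10 spots were well above background on ZnO 4 replicate 1 and 1 of 10 on ZnO 16 replicate 1, and 0 on the other 6 arrays.

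The C1qb probe (NM_019262) gave levels of -5.58, -4.98, -5.32 and -4.98 at ZnO 4 and of -5.79, -5.10, -5.05 and -5.75 at ZnO 16. The doses overlapped, and again no array had the probe well above background. At most 2 of its 10 spots were, on ZnO 16 replicate 4.

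For C1qc (NM_001008524) the ZnO 4 levels were -6.79, -6.02, -6.64 and -6.57 and the ZnO 16 levels -6.54, -5.81, -5.96 and -3.02. Only ZnO 16 replicate 4 was well above background, and it stood alone: its processed signal was 47.1 units, against 2.69 to 4.81 on the other 7 arrays. C1qc has 1 spot per array, so this value has no second spot beside it. The C1qa and C1qb probes were not well above background on that array.

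C2, C3 and factor B build the enzymes that cleave C3. C2 is the serine protease subunit of the classical and lectin pathway convertase, Cfb encodes its counterpart in the alternative pathway, and C3 is both the substrate and, once cleaved, part of the alternative convertase. C2 and Cfb were well above background on all 8 arrays.

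C2 (NM_172222) had levels of 1.08, 1.33, 1.07 and 1.96 on ZnO 4 replicates 1 to 4. On ZnO 16 replicates 1 to 4 the levels were 1.95, 1.90, 1.86 and 1.89. The ZnO 16 arrays were nearly equal, 3 of the ZnO 4 arrays were lower than all of them, and ZnO 4 replicate 4 was above all of them, so the doses overlapped. The mean rose from 1.36 ± 0.419 (SD, n = 4) to 1.90 ± 0.0356 (SD, n = 4), a log2 difference of 0.54 (SE 0.186, 95% interval 0.13 to 0.95) or 1.46-fold, with an adjusted p of 0.0387 by limma.

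The C2 call was not stable. It was lost without any single array other than ZnO 4 replicate 4, with differences of 0.45 to 0.55 and adjusted p by limma of 0.0592 to 0.11. Without ZnO 4 replicate 4 the difference was 0.74, with an adjusted p by limma of 0.00116. It was also lost with no filter on dim probes (limma adjusted p = 0.052) and with no intensity trend in the variance (limma adjusted p = 0.0598).

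The sign of the C2 difference rests on scaling the arrays. Before scaling, the 75th percentiles (log2 units) of ZnO 4 replicates 1 to 4 were 9.01, 8.29, 8.90 and 8.74. Those of ZnO 16 replicates 1 to 4 were 8.55, 7.24, 7.57 and 8.57, so the low signal lay mainly on replicates 2 and 3. Unscaled signals were lower at ZnO 16 for most genes, with a median difference of -0.75 over all tested genes. C2 itself then differed by -0.21, which is 0.54 above that median, as it was with the arrays scaled to their spike-in probes. These scalings subtract the same amount from every gene of an array. The distance from the median therefore hardly changes by construction and is no separate support for a rise.

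C3 (NM_016994), the central component of all 3 pathways, lay near background. Its levels were -3.40, -3.20, -5.11 and -3.23 at ZnO 4 and -3.25, -4.02, -3.55 and -3.09 at ZnO 16. It was well above background on 3 of 4 arrays at ZnO 4 (not on replicate 3) and on 2 of 4 at ZnO 16 (replicates 1 and 4).

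The C3 means were -3.73 ± 0.919 (SD, n = 4) and -3.48 ± 0.409 (SD, n = 4). The doses overlapped, and the difference of 0.26 (SE 0.431, 95% interval -0.70 to 1.21) did not pass (adjusted p = 0.659, limma). Its sign came from 1 array: without ZnO 4 replicate 3 the difference was -0.20.

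Cfb (NM_212466) had levels of -0.31, -0.38, -0.72 and -1.42 at ZnO 4. At ZnO 16 they were -0.93, -0.18, -0.72 and -0.76. The lowest array, ZnO 4 replicate 4, and the highest, ZnO 16 replicate 2, stood at opposite ends. Of the rest, ZnO 4 replicates 1 and 2 lay above the remaining ZnO 16 arrays. ZnO 4 replicate 3 was nearly level with ZnO 16 replicate 3 and above ZnO 16 replicates 1 and 4. Means of -0.71 ± 0.507 and -0.64 ± 0.325 (SD, n = 4 each) gave a difference of 0.06 (SE 0.256, 95% interval -0.50 to 0.63, adjusted p = 0.86 by limma), which was negative without ZnO 4 replicate 4 (-0.17) or without ZnO 16 replicate 2 (-0.09). ZnO 4 replicate 4 was thus the lowest ZnO 4 array for Cfb and the highest for C2.

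Cfp encodes properdin, the positive regulator that stabilises the alternative pathway convertase and that leukocytes secrete. Cfp (NM_001106757) was well above background on all 8 arrays, at 2.56, 2.81, 2.83 and 3.03 for ZnO 4 and at 2.86, 3.67, 3.48 and 3.09 for ZnO 16. ZnO 16 replicates 2, 3 and 4 lay above all ZnO 4 arrays, and ZnO 16 replicate 1 lay within their range. ZnO 16 replicates 2 and 3, the highest after scaling, had the lowest processed Cfp signals of the 8 arrays, 1915 and 2116 units.

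The Cfp mean was 2.81 ± 0.191 (SD, n = 4) at ZnO 4 and 3.27 ± 0.367 (SD, n = 4) at ZnO 16. The difference of 0.46 (SE 0.183, 95% interval 0.06 to 0.87) missed the threshold (adjusted p = 0.0642, limma). It passed with the arrays scaled to their median (0.63, limma adjusted p = 0.0102) and with quantile normalization (0.55, limma adjusted p = 0.0234). With normexp correction it was smaller (0.24, limma adjusted p = 0.353), 0.086 above the median of all tested genes. Leaving out ZnO 4 replicate 4 gave 0.54 (limma adjusted p = 0.0491) and leaving out ZnO 16 replicate 1 gave 0.60 (limma adjusted p = 0.0215).

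**Figure D2:**
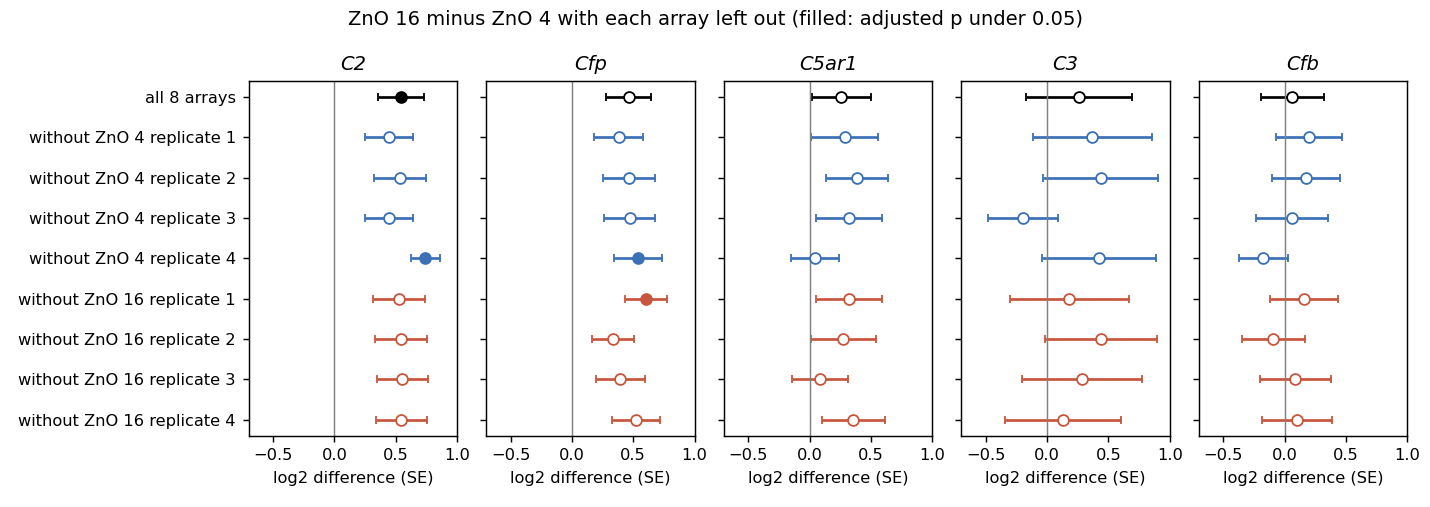
ZnO 16 minus ZnO 4 for the 5 tested genes (x axis, log2 difference with its standard error) with all 8 arrays and with each array left out in turn (rows). Filled points passed an adjusted p under 0.05 by limma. C2 is filled with all arrays and without ZnO 4 replicate 4, Cfp without ZnO 4 replicate 4 or ZnO 16 replicate 1, and the C3 estimate is negative without ZnO 4 replicate 3.

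The anaphylatoxin receptors are G protein-coupled receptors through which macrophages sense C5a (C5ar1) and C3a (C3ar1). C5ar1 (NM_053619) was well above background on all 8 arrays, with levels of 0.72, 1.02, 0.82 and -0.0023 at ZnO 4 and 0.72, 0.85, 1.42 and 0.61 at ZnO 16. ZnO 4 replicate 4 was low, ZnO 16 replicate 3 was high, and the doses overlapped. Means of 0.64 ± 0.446 and 0.90 ± 0.358 (SD, n = 4 each) differed by 0.26 (SE 0.239, 95% interval -0.27 to 0.79), with an adjusted p of 0.405 by limma. The difference was 0.05 without ZnO 4 replicate 4 and 0.09 without ZnO 16 replicate 3. As a fold of ZnO 16 over ZnO 4 the interval runs from 0.83 to 1.73, so it holds a lower level, no difference and a higher level. These arrays therefore do not show that C5ar1 was the same at both doses.

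C3ar1 was not measurable. Its first probe (XM_006237314) lay between -6.84 and -6.02 at ZnO 4 and between -6.74 and -5.87 at ZnO 16. The second (NM_032060) lay between -6.79 and -6.00 and between -6.54 and -5.82. No array had either probe well above background, so the doses were not compared.

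RefSeq promoter sequence was at hand for 5 of the 9 genes (C1qa, C1qb, C3, C3ar1 and Cfp), as the 250 bases before the gene's start in assembly GRCr8. Cfp, well above background on every array, and C3ar1, on none, are shown because their windows alone among the 5 hold the AP-1 motif TGANTCA, here in capitals. AP-1 is a dimer of Fos and Jun type factors. The Cfp window is chrX:3715301-3715550 on the plus strand and the C3ar1 window chr4:157756531-157756780 on the minus strand, both written along the gene.

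Cfp: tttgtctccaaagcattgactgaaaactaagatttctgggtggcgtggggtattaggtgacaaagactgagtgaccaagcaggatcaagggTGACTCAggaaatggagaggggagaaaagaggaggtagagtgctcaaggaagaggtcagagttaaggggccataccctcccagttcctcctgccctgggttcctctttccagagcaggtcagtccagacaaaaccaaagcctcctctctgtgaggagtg

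C3ar1: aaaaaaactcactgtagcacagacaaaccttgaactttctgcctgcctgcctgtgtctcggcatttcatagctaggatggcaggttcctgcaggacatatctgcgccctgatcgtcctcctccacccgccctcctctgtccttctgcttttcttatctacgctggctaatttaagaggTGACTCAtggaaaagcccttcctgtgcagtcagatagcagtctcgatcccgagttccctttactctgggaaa

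Both windows hold the same letters, TGACTCA, at bases -159 to -153 of Cfp and at bases -72 to -66 of C3ar1, counted back from the start. The motif reads the same on both strands, and 6.3% of 33469 rat promoter windows of this length hold it. The PU.1 motif GAGGAAG, present in 10.2% of windows on either strand, was in none of the 5, and neither were the CRE motif TGACGTCA (1.6% of windows), the CHOP and ATF4 motif TGATGNAA (3.4%) or the interferon response motif (3.4%). The heat shock element core GAANNTTC (7.2% of windows) was found in C1qb and C3ar1, and the letters TGCNCNC (43.4% of windows) in C1qb, C3 and C3ar1. The last pattern is looser than the metal response core, which has A or G at the first N, and only the C3ar1 match, TGCGCCC, has one of these. These are matches of letters and not sites of binding, and the array holds no measure of binding.

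Of the 13312 tested genes with no missing value, only those with an ordinary gene symbol (not a LOC, RGD, AABR or MGC name) were ranked against C2. Among these, the genes whose levels followed C2 most closely over the 8 arrays were Btbd9 (Pearson r = 0.99), Ywhag (r = 0.99) and Jagn1 (r = 0.98). This is a description over 8 arrays that share 2 doses and 2 slides. Their own differences were 0.29, 0.36 and 0.30, and none passed (adjusted p = 0.1, 0.0721 and 0.103, limma).

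Other complement genes were taken from a list of 49 ordered by role. A total of 42 had a probe and 13 passed the filter, of which 2 rose, 6 fell and 5 did not pass the threshold (over all tested genes 19.8% were higher and 21.9% lower), with a median difference of -0.17. One of the 6, C6, passed the filter only through the ZnO 4 arrays, where it is high, and with the filter set to all 8 arrays 5 fell. For 8 of the 13 the doses did not overlap, as for 39.9% of all tested genes. Few genes of the plasma cascade passed the filter: of 12 recognition genes with a probe 1 was tested (Fcna), of 7 further components 2 (C6 and Cfd), and of 8 fluid phase regulators 0. Fcna and Cfd did not pass, and they are named after their values were seen. Mbl1, Mbl2 and Masp2 of the lectin pathway and C4a, C8a and C8b were among the 16 genes never well above background.

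**Figure D3:**
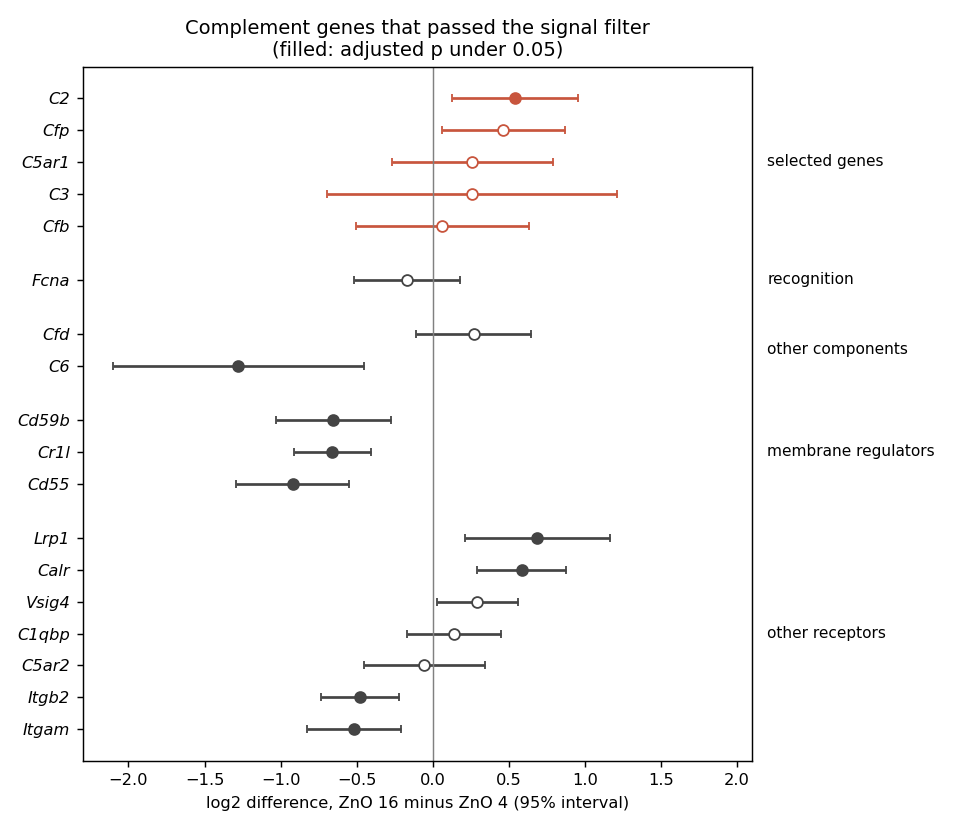
ZnO 16 minus ZnO 4 (x axis, log2 difference with its 95% interval) for the 5 tested genes of the selected set (red) and the 13 tested genes of the wider list (grey), grouped by role. Filled points passed an adjusted p under 0.05 by limma. The 3 membrane regulators lie to the left of 0, between -0.92 and -0.65, and C2 is the one filled point among the 5 selected genes.

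The 3 tested membrane regulators, which protect a cell's own surface from complement, all fell at ZnO 16. Cd55, which speeds the decay of convertases, had ZnO 4 levels of -1.60 to -1.09 and ZnO 16 levels of -2.48 to -2.21, a difference of -0.92 (SE 0.168, adjusted p = 0.00185 by limma). A second kept Cd55 probe did not follow it, at 0.21 (SE 0.213, limma adjusted p = 0.452), and the mean of both probes differed by -0.36 (limma adjusted p = 0.118). Cr1l, the rodent cofactor regulator Crry, went from 0.88 ± 0.0891 to 0.22 ± 0.0966 (SD, n = 4 each), a difference of -0.66 (limma adjusted p = 0.00134). Cd59b, of the family that blocks the membrane attack complex, differed by -0.65 (limma adjusted p = 0.0118). With the arrays scaled to their median, under which the median of all tested genes is 0.17, Cr1l (-0.49, limma adjusted p = 0.0647) and Cd59b (-0.49, limma adjusted p = 0.123) no longer passed.

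Of 7 tested receptors and receptor partners in the wider list 2 rose, 2 fell and 3 did not pass (Vsig4, C1qbp and C5ar2). C5ar2 was named after its values were seen, to complete the count, and its 2 kept probes disagreed. The probe that stood for the gene differed by -0.06 (limma adjusted p = 0.826). The other differed by 0.75 and passed in the fit per probe (limma adjusted p = 0.0431). Both chains of complement receptor 3, the integrin that takes up particles coated with iC3b, were lower at ZnO 16: Itgam by a difference of -0.52 (limma adjusted p = 0.0142) and Itgb2 by -0.48 (limma adjusted p = 0.00849). A second Itgam probe differed by -0.11 (limma adjusted p = 0.711), and with the arrays scaled to their median neither chain passed. Vsig4, the complement receptor of resident macrophages, differed by 0.29 (limma adjusted p = 0.0727) although its doses did not overlap, and it passed with normexp correction (0.58, limma adjusted p = 0.00979), quantile normalization (0.38, limma adjusted p = 0.0355) and array quality weights (0.32, limma adjusted p = 0.0357), and without ZnO 16 replicate 3 (0.37, limma adjusted p = 0.04). C1qbp, a mitochondrial protein that can bind C1q, differed by 0.14 (limma adjusted p = 0.452).

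Calreticulin (Calr), a chaperone of the endoplasmic reticulum that also binds C1q, and Lrp1, its partner receptor in the uptake of dying cells, both rose. Calr went from 3.21 ± 0.234 to 3.79 ± 0.0835 (SD, n = 4 each), a difference of 0.58 (limma adjusted p = 0.00615) with no overlap of the doses. Lrp1 differed by 0.69 (SE 0.215, limma adjusted p = 0.0268), its doses overlapped, and leaving out replicate 1 or 3 of ZnO 4, or replicate 2 or 3 of ZnO 16, ended the call (differences 0.59 to 0.61, limma adjusted p 0.0664 to 0.0791). With normexp correction, under which the median of all tested genes is 0.15, neither passed (Calr 0.11, limma adjusted p = 0.606; Lrp1 0.49, limma adjusted p = 0.0631), nor did Cd55 (-0.25, limma adjusted p = 0.189), Cd59b (-0.35, limma adjusted p = 0.112) or Itgam (-0.26, limma adjusted p = 0.139).

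C6, a component of the membrane attack complex, was near background at ZnO 16. It had a difference of -1.28 (SE 0.373, limma adjusted p = 0.0199), from -3.42 ± 0.317 to -4.69 ± 0.716 (SD, n = 4 each). It was well above background on 4 of 4 arrays at ZnO 4 and on 1 of 4 at ZnO 16, so it entered the test only through the dose at which it is high, and its call does not stand apart from the filter. The call was lost with no filter (limma adjusted p = 0.0535) and without ZnO 4 replicate 3 (-1.23, limma adjusted p = 0.0531), and the sign turned with normexp correction (0.16).

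Some markers of other cell types also differed between the doses. Of 3 endothelial markers Pecam1, which macrophages also express, differed by -1.08 (limma adjusted p = 0.000117), Cdh5 was tested and did not pass, and Kdr was never well above background. The summed level of the 3 was 0.35 to 0.56 at ZnO 4 and -0.77 to -0.37 at ZnO 16. Of 3 T cell markers Cd3d differed by -1.22 (limma adjusted p = 0.00517), Cd3e and Cd2 were never well above background, and the summed level was -3.07 to -2.71 against -4.31 to -3.58. Of the 9 tested macrophage markers 1 rose (Spi1) and 2 fell (Cd68 and Itgam), against 19.8% higher and 21.9% lower over all tested genes. The summed level of the macrophage list was 8.61 to 9.01 at ZnO 4 and 8.09 to 8.83 at ZnO 16. Each sum adds the signals of all probes of a list, and so mostly follows its brightest gene: Pecam1, Cd3d and Lyz2. The 3 Lyz2 probes disagreed. They differed by 0.03 (limma adjusted p = 0.92), 0.73 (limma adjusted p = 0.0132) and -1.41 (limma adjusted p = 0.00259). The part of these marker shifts in the complement differences was not tested.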

How the data were processed

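Cy3-labelled cRNA was hybridised to 1-colour Agilent arrays, per the labels' protocols, and 8 scanner files were deposited. They hold intensity values from Agilent Feature Extraction 11.0.1.1, from which the software had, per the file headers, already taken background and a spatial trend, with 0 or 1 flags per spot that the authors' software set, and no normalization between arrays. The headers name build rn4, and RefSeq tables of assembly GRCr8 were used for names and promoters only. Each array had 62976 spots, 58717 of them non-control. No spot was saturated.

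From the deposited intensity the log2 was taken, and the 75th percentile of an array's non-control spots was subtracted from it. Spots flagged as non-uniform or as population outliers were set to missing, and spots of a probe were averaged. A probe counted as well above background on an array when at least 0.5 of its unflagged spots were, and was kept when it was so on at least 3 of 4 arrays of a dose. The kept probe with the highest mean stood for its gene. limma 3.58.1 in R 4.3.3 (lmFit, eBayes with an intensity trend, two-sided) tested ZnO 16 minus ZnO 4, with Benjamini-Hochberg adjustment over 13460 genes and a threshold of 0.05. The procedure was tested on simulated data of 13312 genes, 200 of them changed. It recovered 12% of differences of 0.5 log2 units, 50% of 1, 88% of 2 and 98% of 3. It called 6 unchanged genes. Only 200 genes were changed there, against 5612 called here, so these shares do not carry over directly. A gene that did not pass was not shown to be the same at both doses. The alternatives changed the background correction, scaling, filter, flags, probe rule, variance model, replicate block and the arrays included.

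The genes and lists were chosen with earlier results of these data known. The rule for wider genes with values was all that passed and up to 3 that did not, and 3 more are named to complete counts. One further complement gene is not reported here. The number of arrays limits the precision.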

Additional observations from a re-analysis of the deposited data

Results flagged for a closer look

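Dixon's test was applied to the probes of the 9 genes and of the wider genes that passed the threshold, 36 groups of 4 arrays in all. Of these groups, 1 held an array far from the other 3. Vsig4, C1qbp, C5ar2, Fcna and Cfd were not checked. For C3 at ZnO 4, replicate 3 had a level of -5.11, and its gap to the nearest of the other 3 arrays was 0.893 of the range of the group, above the 95% critical value for 4 samples. At that level the test picks out about 1 in 20 groups by chance alone. C3 was not well above background on this array and was on the other 3 of the dose.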

How the results depend on the processing

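With no scaling the differences turned for C2 (-0.21), C3 (-0.50), Cfb (-0.69), Cfp (-0.29), C5ar1 (-0.49), Vsig4 (-0.46), C1qbp (-0.62), Calr (-0.17) and Lrp1 (-0.067). With spike-in scaling they turned for C2 (-0.15), C3 (-0.44), Cfb (-0.63), Cfp (-0.23), C5ar1 (-0.43), Vsig4 (-0.40), C1qbp (-0.55), Calr (-0.11) and Lrp1 (-0.0068). The median of all tested genes moved to -0.75 and -0.69 there, and the calls over all tested genes were then 229 up and 4417 down without scaling, or 255 up and 4413 down on the spike-in scale, against 2669 and 2943. Other reversals were Cfb with array quality weights (-0.13) and C6 with normexp (0.16). C2 (0.54) was not called with no filter or with no intensity trend. Cfp was called with median scaling (0.63), quantile normalization (0.55) and the replicate block (0.46, limma adjusted p = 0.0479). Of the 5 tested genes 2 were thus called higher with median scaling, quantile normalization or the replicate block, and 0 with no scaling, spike-in scaling, no filter or no intensity trend.

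The wider list had 1 higher with normexp, 0 higher with no scaling or spike-in scaling, and 2 lower with normexp or median scaling. Leaving out 1 array at a time gave 0 to 2 called of the 5 genes and 1 to 2 higher in the wider list, with differences of 0.45 to 0.74 for C2, -0.20 to 0.44 for C3, -0.17 to 0.20 for Cfb, 0.33 to 0.60 for Cfp and 0.05 to 0.39 for C5ar1. The cause of these changes was not tested. Same-numbered replicates of the 2 doses deviated with correlations of 0.25, 0.40, -0.22 and -0.03, so the numbers were not taken to pair the arrays. The block left 2591 genes higher and 2881 lower.

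A level under the lowest signal well above background has no order, which limits C1qa, C1qb, C1qc and C3ar1. Low-signal areas covered 3.78% of spots on ZnO 4 replicate 4 and 1.22% on ZnO 16 replicate 4. Masking them changed no call among the 5 genes, none of whose spots lay in one.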
